A study of Mus musculus with 18 samples.

Results

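H3K9me2, the dimethyl form of lysine 9 on histone H3, was mapped in mouse liver by ChIP-seq, and the 330 genes described here are those that were expressed in liver but had no H3K9me2 summit at the promoter. A gene was taken as expressed at a mean of at least 10 CPM (1 CPM is 1 count in 1000000 of the library) in the 2 WT RNA libraries, and as lacking a summit when none of the 4 ChIP-seq livers had a summit, the highest point of a called peak, within 1000 bp of any of its curated RefSeq transcript starts. Of 15572 genes in the count table, 7531 reached this level and 7517 of these had an annotated start, so the summit-free genes were 330 of 7517 and the summit-bearing genes the other 7187. The WT RNA level and the ChIP-seq summits chose the genes, so the genes were selected on these values, which are given below as descriptions only.

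RNA-seq compared refed JMJD1C-LKO with refed WT livers. ATAC-seq had these 2 groups and fasted WT livers as well, and the H3K9me2 ChIP-seq, each sample with its own input, had fasted and refed livers of WT mice only. There were 2 samples per group. The mice were C57BL/6J and, by the labels, had been on chow for 6 to 8 weeks; the methods give 12 weeks of age as the general rule, and no age is stated for these samples. The labels state an overnight fast and then 6 h on a high carbohydrate diet for every sample, and the methods a range of 8 to 16 h. The titles mark livers F or R, for fasted and refed. JMJD1C-LKO mice carry floxed Jmjd1c alleles cut by a Cre driven by the albumin promoter, which is active in hepatocytes, so the other cells of the liver still hold the gene, and the controls were WT littermates. Each RNA library came from pooled RNA and each ATAC-seq or ChIP-seq sample from a single liver, and the knockout was present only in refed mice. How many livers went into a pool is not given in the sources used here, so p-values for RNA measure only the spread between these libraries.

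H3K9me2 is written by G9a and GLP and removed by demethylases of the JMJD1 family, among them JMJD1C, and is known as a mark of silent chromatin. Promoters of housekeeping genes are usually rich in CpG dinucleotides, whereas promoters of genes that belong to a single cell type are often CpG-poor. In ATAC-seq a transposase cuts accessible DNA, so that summits lie where chromatin is open.

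The 4 ChIP-seq lists differed widely. The fasted livers had 7690 and 13456 summits, which lay at 77.5% and 95.03% of the 7517 expressed promoters. With 1297 and 9929 summits, the 2 refed livers covered 0.133% and 87.5%. Refed liver 1 thus stood apart, with a summit at 10 of these promoters, and without it the number of summit-free genes was 332. Without fasted liver 2, which had the longest list, the number was 774, so the set rests largely on that liver. Promoter summits were frequent at expressed genes and rare at silent ones, the reverse of what the name of the mark would lead one to look for. No liver had a promoter summit at 3093 of 3811 genes below 1 CPM (81.16%), against 5.37% of genes at 10 to 30 CPM, 3.66% at 30 to 100 CPM and 3.37% at 100 CPM or more. The lists hold neither read counts nor depth.

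**Figure D1:**
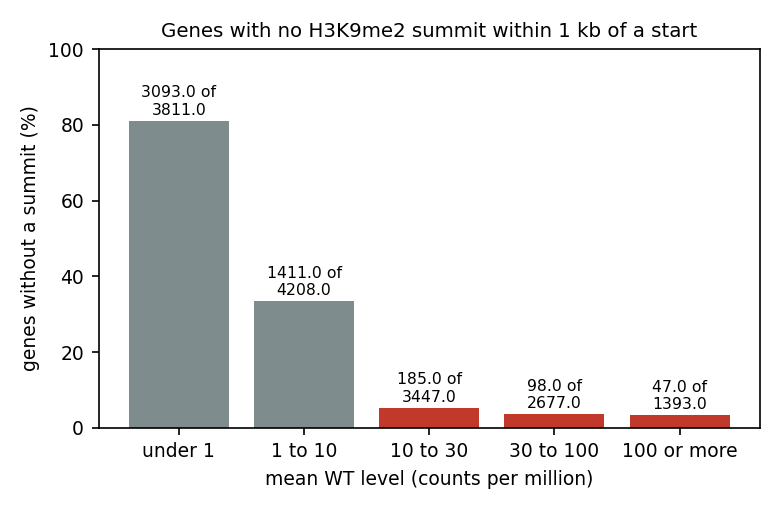
Share of genes with no H3K9me2 summit within 1 kb of a transcript start in any of the 4 ChIP-seq livers, in percent, by mean WT RNA level in CPM; numbers above the bars are genes without a summit of all genes in the band. The 3 red bars at 10 CPM and over hold the 330 summit-free genes, and each is at 5.37% or less, against 81.16% below 1 CPM.

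RNA libraries held 51265128 to 54400509 counts. Jmjd1c itself had 22.2 and 23.2 CPM in the WT and 19.3 and 20.8 CPM in the JMJD1C-LKO libraries, a log2 fold change of -0.14 ± 0.084 SE (adjusted p = 0.23, edgeR), so that the gene-level counts, which do not single out the deleted part, did not show the deletion. "JMJD1C-LKO" below therefore means the libraries and livers so labelled. All 9 hepatocyte markers were detected, with summed levels of 121511.7 to 123201.3 CPM in the WT and 110707.4 to 118598.6 CPM in the JMJD1C-LKO libraries, so that the groups did not overlap. Taken one by one, 2 of the 9 were higher and none lower (edgeR, adjusted p under 0.05), with a median log2 fold change of 0.075. The lower sum was thus not a fall across the markers.

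At the RefSeq promoters of the summit-free genes, CpG dinucleotides were scarce. The stretch from 250 bases before to 50 bases after the start (GRCm38.p6) was available for 236 of the 330 genes and for 5864 summit-bearing genes, and the ratio of observed to expected CpG had a median of 0.31 against 0.79. A ratio of at least 0.6 was found in 22.0% against 77.5%, and the median GC content was 53.0% against 61.3%. The 250 bases before the start are printed, 5′ to 3′, for 3 markers of Kupffer cells, the resident macrophages of liver (Marco, chr1:120505025-120505274, minus strand; Cd5l, chr3:87357631-87357880, plus strand; Clec4f, chr6:83656117-83656366, minus strand), for the stellate cell collagen gene Col3a1 (chr1:45311288-45311537, plus strand) and for the acetyl-CoA carboxylase gene Acaca (chr11:84195188-84195437, plus strand), since none of these 5 runs holds a single CpG. The motif TATAAA of Col3a1, 117 bases before the start, is in capitals. The Acaca run precedes its curated start but lies inside the annotated gene span, which begins at chr11:84129635. It is therefore not the sequence upstream of the whole gene.

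Marco: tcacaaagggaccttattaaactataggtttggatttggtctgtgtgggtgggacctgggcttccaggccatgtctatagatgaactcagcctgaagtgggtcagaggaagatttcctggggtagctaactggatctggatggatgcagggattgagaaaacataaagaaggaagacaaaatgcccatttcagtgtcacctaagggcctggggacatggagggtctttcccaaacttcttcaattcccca
Cd5l: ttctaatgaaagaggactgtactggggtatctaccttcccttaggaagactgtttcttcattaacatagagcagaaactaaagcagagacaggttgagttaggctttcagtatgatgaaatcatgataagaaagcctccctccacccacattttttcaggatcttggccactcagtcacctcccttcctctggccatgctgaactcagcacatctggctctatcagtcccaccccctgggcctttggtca
Clec4f: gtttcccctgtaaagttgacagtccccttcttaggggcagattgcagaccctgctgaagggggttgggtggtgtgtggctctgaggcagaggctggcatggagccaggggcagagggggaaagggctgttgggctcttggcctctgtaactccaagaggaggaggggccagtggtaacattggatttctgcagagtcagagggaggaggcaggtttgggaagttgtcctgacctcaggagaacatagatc
Col3a1: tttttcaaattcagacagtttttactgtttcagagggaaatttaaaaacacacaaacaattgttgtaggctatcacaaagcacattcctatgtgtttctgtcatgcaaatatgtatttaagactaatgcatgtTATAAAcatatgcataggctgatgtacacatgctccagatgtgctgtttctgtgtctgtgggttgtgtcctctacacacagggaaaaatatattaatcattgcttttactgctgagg
Acaca: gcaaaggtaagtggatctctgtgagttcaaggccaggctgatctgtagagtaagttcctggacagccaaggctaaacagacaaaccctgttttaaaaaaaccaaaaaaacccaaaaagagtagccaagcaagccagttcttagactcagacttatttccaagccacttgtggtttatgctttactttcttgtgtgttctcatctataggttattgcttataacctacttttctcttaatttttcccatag

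Not all were CpG-poor. The runs of Kyat3 (chr3:142700798-142701047, plus strand), Hdac6 (chrX:7947890-7948139, minus strand) and Derl3 (chr10:75893148-75893397, plus strand) hold 13, 17 and 16 CpG dinucleotides, shown in capitals, and come from the 52 summit-free genes with a ratio of at least 0.6. They are shown because the first 2 had ATAC-seq summits within 1000 bp and the third was among the genes with the smallest p for a decrease in JMJD1C-LKO. The Kyat3 and Hdac6 runs lie in part inside the annotated gene spans, which begin at chr3:142701019 and end at chrX:7948047.

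Kyat3: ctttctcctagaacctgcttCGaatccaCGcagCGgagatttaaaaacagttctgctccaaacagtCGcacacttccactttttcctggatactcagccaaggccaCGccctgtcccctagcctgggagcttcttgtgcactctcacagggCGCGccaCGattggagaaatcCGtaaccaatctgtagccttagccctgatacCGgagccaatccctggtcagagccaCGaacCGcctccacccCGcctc
Hdac6: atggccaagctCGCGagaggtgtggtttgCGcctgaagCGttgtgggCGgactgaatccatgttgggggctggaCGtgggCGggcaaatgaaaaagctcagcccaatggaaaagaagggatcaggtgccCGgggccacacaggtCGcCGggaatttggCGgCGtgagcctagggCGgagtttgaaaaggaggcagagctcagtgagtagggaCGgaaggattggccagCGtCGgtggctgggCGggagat
Derl3: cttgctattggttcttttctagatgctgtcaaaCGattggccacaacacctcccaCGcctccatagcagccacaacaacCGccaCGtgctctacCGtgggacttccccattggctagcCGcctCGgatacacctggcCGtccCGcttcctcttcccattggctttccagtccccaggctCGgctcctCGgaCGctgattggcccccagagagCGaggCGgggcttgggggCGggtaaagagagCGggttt

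Short motifs were counted in the same promoters. On either strand of the 300 bases, TATAAA, the core of the TATA box, was found in 19.9% of the summit-free against 8.68% of the summit-bearing genes. It was found in 9.81% of the 12216 genes of the count table with a promoter. Of all 32851 RefSeq promoters, which include genes not in that table, 13.62% held it. Shares of genes count a match in any promoter of a gene, whereas shares of all promoters count each promoter singly. GGGCGG, the core of the GC box, was found in 36.9% against 71.5%, with 63.12% of the genes of the table and 35.66% of all promoters. CACGTG, the E-box bound by USF, was found in 6.78% against 12.8% (10.99% of the table and 7.15% of all), and GAGGAA, the core of the site of the macrophage factor PU.1, in 33.1% against 29.1% (30.53% and 28.28%). A match is only a run of letters, and these shares carry no test.

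**Figure D2:**
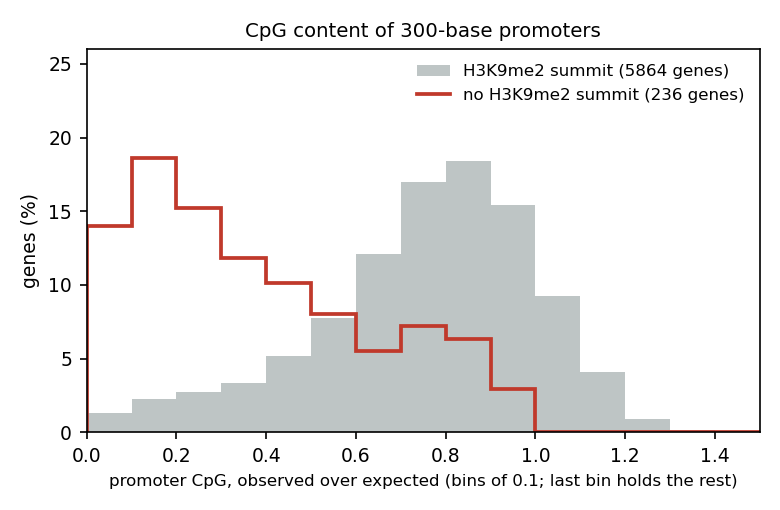
Observed over expected CpG in 300-base promoters (x axis, bins of 0.1) against the share of genes in percent, for 236 summit-free genes (red line) and 5864 summit-bearing genes (grey). The summit-free genes have a median of 0.31 and the summit-bearing genes of 0.79.

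Short reads that fit several places were discarded in the ChIP-seq, so the sequence around each start was examined for uniqueness. The share of 50-base words, the read length, that occur once in the genome was computed within 1000 bp of the starts, and 67 summit-free genes (20.3%) fell under 90% unique words, against 3.9% of the summit-bearing genes. Among these 67 were members of families with near-identical copies, such as Mup20 at 21.3%, Hba-a2 at 24.6% and Serpina1e at 49.7%, so that the absence of a summit at these genes is uncertain and counts can be split between copies. The other 263 genes had a median CpG ratio of 0.32.

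Annotation mattered as well. Beside curated transcripts, RefSeq lists predicted ones, and 71 of the 330 genes had an H3K9me2 summit within 1000 bp of a predicted start, which leaves 259 genes with a summit at neither kind. The 71 were long genes, with a median span of 92938 bp against 13227 bp for the 259. Acaca and Acacb were both among the 71, as were Kyat3, Nfib and Hlf, and for Acaca the closest summit lay 15340 bp from the curated and 159 bp from a predicted start. H3K9me2 summits were found inside the gene span of 82 of the 330 genes, and the distance from a curated start to the closest summit had a median of 28789 bp, with 62 genes at 1000 to 5000 bp and 235 beyond 10000 bp.

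At the limits of the rule, Laptm4a and Nfib were just inside with their closest summit at 1017 bp, and Slc25a45 and Dnase1l3 just outside at 994 and 1000 bp. By level, Pkm at a mean of 10.03 CPM and Timp2 at 10.04 CPM were just inside, and Col1a1 at 9.859 CPM and Robo4 at 9.848 CPM, both without a summit, were just outside.

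Markers of cells other than hepatocytes were mostly summit-free. All 10 expressed markers of Kupffer cells and macrophages lacked a summit: Marco, Cd5l, Clec4f, Vsig4, Csf1r, Lyz2, Cd68 and the 3 chains of complement C1q. So were 5 of 6 stellate cell markers (Col1a2, Col3a1, Dcn, Lrat and Rgs5), 4 of 8 endothelial markers (Stab2, Cdh5, Lyve1 and Clec4g), all 5 red blood cell markers (Alas2 and the 4 globin genes) and, of 2 expressed cholangiocyte markers, Spp1. None of the 9 hepatocyte markers was. Lymphocyte and exocrine pancreas markers did not reach 10 CPM.

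The share of summit-free genes, 4.39% of all expressed genes, was then set beside lists of hepatocyte functions, as counts with no test. There were none among 12 gluconeogenic, 18 cholesterol synthesis, 27 fatty acid oxidation, 22 glycolysis or 21 bile acid genes that were expressed, nor among 78 cytosolic and 78 mitochondrial ribosomal protein genes, 83 respiratory chain genes, 35 proteasome genes, 20 tRNA synthetase genes, 26 mitochondrial carrier genes, 91 genes named Zfp or 14 genes of H3K9 methylation. Immediate early and sex-linked lists, with 6 and 3 expressed genes, also had none. Of 22 lipogenic genes there were 2, Acaca and Acacb, and of 64 plasma protein genes 1, Serpina7. Amino acid breakdown gave Sdsl out of 38, the circadian clock Hlf out of 16, translation factors Eif3j2 out of 59, and the chromatin families Hdac6 out of 31. Larger shares were found for 9 of 41 cytochrome P450 genes of families 1 to 4, 10 of 36 Ugt, Gst and Sult genes, 3 of 18 serpins and 6 of 12 major urinary protein genes. These labels took in only part of the set, since 228 of the 330 genes (69.1%) were neither markers nor members of the last 4 families, of Ces or of Akr1c, and had at least 90% unique words.

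Transcribed pseudogenes made up 28 of the 330 genes (8.48%) against 12 of the 7187 (0.17%). Some summit-free genes lay side by side. With at most 50 kb between gene spans, 37 of them formed 17 runs, among them C1qa, C1qb and C1qc, the 4 genes Gstm2, Gstm3, Gstm6 and Gstm7, H2-Aa with H2-Ab1, Col4a1 with Col4a2, and Cyp2c40 with Cyp2c69.

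RNA levels of the summit-free genes were somewhat lower than those of the rest, with a median WT level of 26.98 CPM (quartiles 14.5 and 58.6) against 34.0 CPM. Their sum was 2.51% and 2.47% of all counts in the WT and 2.77% and 2.71% in the JMJD1C-LKO libraries. The highest was Serpina1e (chr12:103946931-103956897, minus strand), an alpha-1-antitrypsin gene, with 2782 and 2800 CPM in the WT and 3465 and 2046 CPM in the JMJD1C-LKO libraries. The groups overlapped, and the JMJD1C-LKO libraries lay on either side of the WT. Mup20, a major urinary protein, followed with 1746 and 1873 CPM in the WT and 4128 and 2727 CPM in the JMJD1C-LKO libraries, and Cyp2a5, a coumarin hydroxylase, with 1264 and 1207 CPM in the WT and 1189 and 1263 CPM in the JMJD1C-LKO libraries. These 3 genes have close copies, so their counts are uncertain. Chchd10, a small mitochondrial protein, had 1261 and 1182 CPM in the WT and 1032 and 1072 CPM in the JMJD1C-LKO libraries, and its promoter words were 99.3% unique. The rest of the 10 highest were Gm4737, Eno1b, Lrg1, an acute-phase glycoprotein, Cyp2c40, Gm15772 and Iigp1, an interferon-inducible GTPase, with mean WT levels from 871 down to 358 CPM.

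Open chromatin was then examined at the same promoters, a measure the choice of genes did not use. ATAC-seq summits lay within 1000 bp of a start for 10 and 5 of the 330 summit-free genes in the WT fasted livers (3.03% and 1.52%). Refed WT livers had 7 and 5 (2.12% and 1.52%), and the JMJD1C-LKO livers 5 and 1 (1.52% and 0.3%). In the same order the shares of summit-bearing genes were 25.98%, 12.12%, 21.5%, 14.37%, 8.64% and 1.85%. The summit-free share was the lower in each of the 6 livers, with a mean difference of -12.4 percentage points ± 7.86 (SD, n = 6), and an exact two-sided sign-flip permutation test gave p = 0.0312, the smallest that 6 livers allow. The same genes were scored in every liver, so this p measures only whether the livers agree in direction. It does not measure the choice of genes, and a start annotated in the wrong place would lower ChIP-seq and ATAC-seq matches alike. In every liver the summit-free share was also below that of all genes under 1 CPM, which ran from 0.39% to 6.11%. The 95% Wilson interval of the summit-free share, which covers counting error only, included that of genes under 1 CPM in 4 of the 6 livers. Genes under 1 CPM were taken whatever their ChIP-seq state, so summit-free expressed genes were not compared with summit-free silent genes.

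The same comparison within 2 ranges of promoter CpG content gave a mean difference of -7.78 points at a CpG ratio under 0.6 and of -13.75 points at 0.6 or more, and among genes with at least 90% unique words it was -12.15 points. Each was lower in 6 of 6 livers (exact permutation p = 0.0312), and these 3 settings were chosen after the data had been seen. The lists of the JMJD1C-LKO livers were shorter, 1450 and 825 summits against 3119 to 7632 in the WT livers, and both kinds of gene had fewer summits there. Group means for the summit-free genes were 2.27% ± 1.07 for fasted WT, 1.82% ± 0.43 for refed WT and 0.91% ± 0.86 for refed JMJD1C-LKO livers (SD, n = 2 each), and these were not compared, since 2 livers against 2 allow no exact p below 0.333.

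**Figure D3:**
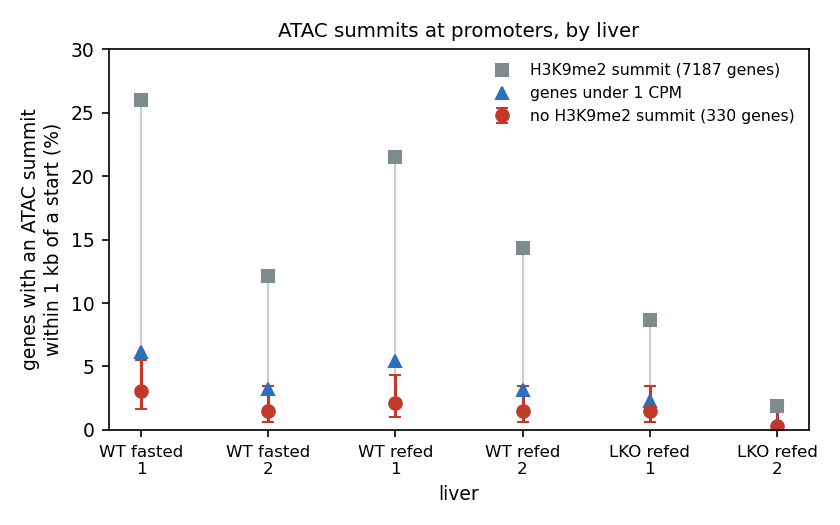
Share of genes with an ATAC-seq summit within 1 kb of a transcript start, in percent, in each of 6 livers, for 330 summit-free genes (red circles, with 95% Wilson intervals), 7187 summit-bearing genes (grey squares) and all genes under 1 CPM, with or without an H3K9me2 summit (blue triangles). The red circle is the lowest of the 3 in each liver, from 0.3% to 3.03%.

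Only 16 summit-free genes (4.85%) had an ATAC-seq summit at the promoter in any liver, against 36.65% of summit-bearing genes, and 4 had one in all 4 WT livers. Slc27a1, a fatty acid transport protein, had one in all 6 livers, 252 to 404 bp upstream of a start in 5 of them and 179 bp downstream of another start in WT fasted liver 1. Kyat3, a kynurenine aminotransferase, had summits between 83 bp upstream and 161 bp downstream of its start in 5 livers, those upstream falling within the bases printed above. Laptm4a, a lysosomal membrane protein, had summits 414 to 507 bp downstream in 5 livers, and its closest H3K9me2 summit lay at 1017 bp, just outside the window. Kifc2, a kinesin, had summits in 5 livers, 327 bp upstream or 186 to 236 bp downstream of a start. In JMJD1C-LKO liver 2, Slc27a1 was the single gene of the 330 with a summit. None of the 25 summit-free marker genes of other cell types had one in any liver, and Hdac6 had one in WT refed liver 2 alone, 225 bp upstream.

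Next, the change in JMJD1C-LKO was read for the 330 genes from an edgeR fit over all 14151 genes tested, where 14.6% were higher and 13.4% lower at an adjusted p under 0.05. Among the summit-free genes 105 were higher (31.8%) and 57 lower (17.3%), with a median log2 fold change of 0.092, whereas the summit-bearing genes had 11.9% higher, 21.1% lower and a median of -0.066. The median over all genes tested was 0.006. Because the WT libraries that set the expression limit also enter this contrast, the limit favours genes that were high in WT. With the limit on the mean of all 4 libraries there were 386 genes, and 164 of these were higher and 53 lower. These 386 share 324 genes with the 330. The genes added pass only through higher JMJD1C-LKO levels, so the larger count of higher genes follows in part from that choice. Without WT library 1 the median log2 fold change of the 330 genes was 0.101, against 0.007 over all genes tested. Without WT library 2 it was 0.067, against 0.008. The 259 genes with no summit at a predicted start had 92 higher and 46 lower.

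**Figure D4:**
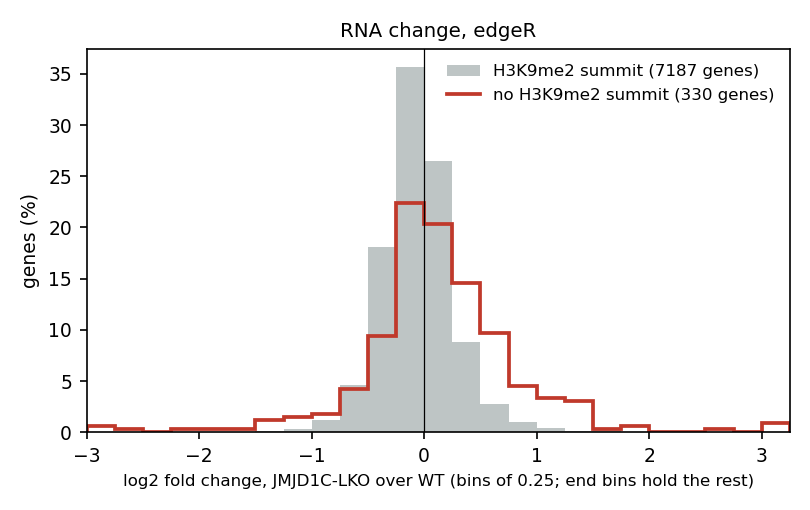
Distribution of log2 fold changes (JMJD1C-LKO over WT, edgeR, bins of 0.25) in percent of genes, for 330 summit-free genes (red line) and 7187 summit-bearing genes (grey). The summit-free genes spread more widely, with 5th and 95th percentiles of -0.875 and 1.235 against -0.546 and 0.477.

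Kupffer cell and macrophage markers were higher as a group, with all 10 summit-free markers past the threshold and a median log2 fold change of 1.147. Marco, a scavenger receptor, had 26.5 and 23.7 CPM in the WT and 54.1 and 80.9 CPM in the JMJD1C-LKO libraries (log2 fold change 1.46 ± 0.15 SE, adjusted p = 0.000229). Cd5l, a secreted macrophage protein, had 57.0 and 61.5 CPM in the WT and 124.6 and 194.2 CPM in the JMJD1C-LKO libraries (log2 fold change 1.46 ± 0.15 SE, adjusted p = 0.000282). In both, the JMJD1C-LKO libraries lay above both WT libraries and library 2 was the higher. C1qb, a chain of complement C1q, had 26.8 and 31.0 CPM in the WT and 54.1 and 76.9 CPM in the JMJD1C-LKO libraries (log2 fold change 1.21 ± 0.13 SE, adjusted p = 0.000344). Csf1r, the receptor for the macrophage growth factor, and Clec4f, a Kupffer cell lectin, had log2 fold changes of 1.40, adjusted p = 0.00035 and 0.97, adjusted p = 0.000849. The 12 macrophage markers of the full list summed to 367.5 and 387.9 CPM in the WT and 687.7 and 1036.2 CPM in the JMJD1C-LKO libraries, and none was at 0. All 12 were higher at the same threshold, so the rise was not particular to the summit-free markers. In whole liver, more cells of a type and more RNA per cell cannot be told apart.

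Markers of other cell types were read in the same way, with no test of one cell type against another. All 4 summit-free endothelial markers were higher, and of the 10 tested, whatever their ChIP-seq state, 7 were higher and none lower. Stab2, a scavenger receptor of sinusoids, had 26.6 and 28.1 CPM in the WT and 38.9 and 55.4 CPM in the JMJD1C-LKO libraries (log2 fold change 0.82 ± 0.13 SE, adjusted p = 0.00188), and Cdh5, the endothelial cadherin, had 14.2 and 13.2 CPM in the WT and 17.4 and 25.1 CPM in the JMJD1C-LKO libraries (log2 fold change 0.67 ± 0.14 SE, adjusted p = 0.00783). Over the 10 endothelial markers the sum went from 191.6 to 196.6 CPM in the WT to 237.7 to 334.3 CPM in the JMJD1C-LKO libraries. Of 5 stellate cell markers 2 were higher, the collagen genes Col1a2 (log2 fold change 0.47 ± 0.14 SE, adjusted p = 0.0315) and Col3a1 (log2 fold change 0.49 ± 0.16 SE, adjusted p = 0.0485), while the retinol-storing enzyme gene Lrat had 11.4 and 11.3 CPM in the WT and 9.20 and 8.91 CPM in the JMJD1C-LKO libraries and did not pass the test (log2 fold change -0.29 ± 0.11 SE, adjusted p = 0.0915). The 10 stellate markers, of which 3 were higher and none lower, summed to 224.8 and 233.2 CPM in the WT and 236.0 and 302.3 CPM in the JMJD1C-LKO libraries. Of 5 red blood cell genes only Alas2, the heme synthesis enzyme of erythroid cells, was higher (log2 fold change 0.59 ± 0.16 SE, adjusted p = 0.021). The globin gene Hbb-bs had 303 and 149.5 CPM in the WT and 256 and 259 CPM in the JMJD1C-LKO libraries, and its groups overlapped because WT library 1 was the highest and WT library 2 the lowest. Red blood cell markers as a whole summed to 1271.3 and 727.3 CPM in WT and 1085.3 and 1143.8 CPM in JMJD1C-LKO. The cholangiocyte gene Spp1, for osteopontin, had 18.6 and 21.9 CPM in the WT and 17.7 and 20.3 CPM in the JMJD1C-LKO libraries and overlapped. Over the 6 cholangiocyte markers, of which 1 was lower and none higher, the sum was 48.9 to 52.0 CPM in the WT and 42.0 to 43.8 CPM in the JMJD1C-LKO libraries. Lymphocyte markers, none of them in the set, summed to 12.7 to 14.8 CPM in the WT and 23.6 to 31.9 CPM in the JMJD1C-LKO libraries, and of the 11 tested 4 were higher and none lower, with a median log2 fold change of 1.071. Outside these marker lists, 88 of the summit-free genes were higher and 57 lower, with a median of 0.057.

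Of the 8 summit-free genes with the smallest p for an increase, 3 belong to antigen presentation by MHC class II. Cd74, the invariant chain that escorts class II molecules, had 45.5 and 43.7 CPM in the WT and 262 and 463 CPM in the JMJD1C-LKO libraries (log2 fold change 3.05 ± 0.20 SE, adjusted p = 3.5e-05). H2-Aa and H2-Ab1, which encode the chains of the class II molecule I-A, had 14.4 and 14.4 CPM in the WT and 78.3 and 149 CPM in the JMJD1C-LKO libraries and 14.3 and 13.3 CPM in the WT and 85.6 and 147 CPM in the JMJD1C-LKO libraries, with log2 fold changes of 3.01 and 3.10. In all 3 genes the 2 WT libraries were nearly equal, both JMJD1C-LKO libraries were far above them, and JMJD1C-LKO library 2 was the higher. MHC class II is carried by macrophages, dendritic cells and B cells. The summed markers of macrophages and of lymphocytes were higher in the same libraries, and the part of those cells was not tested. H2 genes have close relatives and their counts are uncertain.

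Saa1, an acute-phase serum amyloid gene with a close copy and 73.9% unique words, had 11.7 and 13.6 CPM in the WT and 69.8 and 74.6 CPM in the JMJD1C-LKO libraries (log2 fold change 2.55 ± 0.09 SE, adjusted p = 1.4e-06), with little spread within either group. Vcam1, an adhesion molecule of activated endothelium, had 11.9 and 14.6 CPM in the WT and 37.1 and 60.6 CPM in the JMJD1C-LKO libraries (log2 fold change 1.91 ± 0.18 SE, adjusted p = 0.000189). Cyp17a1, the 17-alpha-hydroxylase of steroid synthesis, had 22.4 and 19.4 CPM in the WT and 48.4 and 60.3 CPM in the JMJD1C-LKO libraries (log2 fold change 1.41 ± 0.11 SE, adjusted p = 6e-05). Crybg1 and Sult1b1, a sulfotransferase, rose by 1.16 and 0.97 on the log2 scale. Of the 10 summit-free Ugt, Gst and Sult genes 6 were higher and none lower, while the 49 tested, whatever their ChIP-seq state, had 17 higher and 6 lower. Among the 6 were Gstm2, a glutathione transferase, with 48.5 and 36.2 CPM in the WT and 92.0 and 105 CPM in the JMJD1C-LKO libraries (log2 fold change 1.25 ± 0.13 SE, adjusted p = 0.000238), and Ugt1a5 with a log2 fold change of 1.11, adjusted p = 0.000238.

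Among the 57 lower genes, cytochrome P450 genes were frequent, with 7 of 9 summit-free members lower and none higher, a median log2 fold change of -0.718 and a median of 63.8% unique words. Cyp2c69 (chr19:39842660-39886769, minus strand) had 279 and 315 CPM in the WT and 40.7 and 38.9 CPM in the JMJD1C-LKO libraries (log2 fold change -2.86 ± 0.10 SE, adjusted p = 1.2e-06), and its neighbour Cyp2c40 had 426 and 324 CPM in the WT and 106 and 108 CPM in the JMJD1C-LKO libraries (log2 fold change -1.77 ± 0.12 SE, adjusted p = 4.3e-05). Cyp2a4, a steroid 15-alpha-hydroxylase, had 269 and 252 CPM in the WT and 24.1 and 51.9 CPM in the JMJD1C-LKO libraries (log2 fold change -2.75 ± 0.26 SE, adjusted p = 0.000158), whereas Cyp2a5, its near-identical relative, showed the even levels given above. The WT and JMJD1C-LKO libraries of these 3 lower genes were far apart, but reads shared between copies make each value uncertain. The 61 P450 genes tested, whatever their ChIP-seq state, had 15 higher and 11 lower.

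Lower genes without close copies included Hao2, a peroxisomal hydroxyacid oxidase, with 19.6 and 18.0 CPM in the WT and 1.46 and 2.28 CPM in the JMJD1C-LKO libraries (log2 fold change -3.29 ± 0.17 SE, adjusted p = 1e-05). Derl3, a factor of protein degradation at the endoplasmic reticulum whose CpG-rich promoter is printed above, had 20.2 and 24.3 CPM in the WT and 6.01 and 4.56 CPM in the JMJD1C-LKO libraries (log2 fold change -2.04 ± 0.16 SE, adjusted p = 6e-05). Serpina7, the thyroxine-binding globulin of plasma, had 13.9 and 15.2 CPM in the WT and 5.66 and 5.90 CPM in the JMJD1C-LKO libraries (log2 fold change -1.29 ± 0.12 SE, adjusted p = 0.000143). In each of these the highest JMJD1C-LKO value was below the lowest WT value. Tgm1, a transglutaminase, and Pdilt, a disulfide isomerase relative, had log2 fold changes of -1.56 and -1.37. By contrast, Acnat2, an N-acyltransferase of peroxisomes, lies beside its relative Acnat1 and had only 36.9% unique words, so its counts are uncertain. Its levels were 91.5 and 82.9 CPM in the WT and 39.0 and 43.2 CPM in the JMJD1C-LKO libraries.

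The 2 lipogenic genes differed. Acaca, which makes malonyl-CoA for fatty acid synthesis in the cytosol, had 66.0 and 76.7 CPM in the WT and 47.1 and 46.8 CPM in the JMJD1C-LKO libraries (log2 fold change -0.57 ± 0.09 SE, adjusted p = 0.00211), and both JMJD1C-LKO libraries were below both WT libraries. Acacb, its relative at the mitochondrial surface, had 22.9 and 32.4 CPM in the WT and 22.0 and 35.5 CPM in the JMJD1C-LKO libraries and did not pass the test (log2 fold change 0.09 ± 0.20 SE, adjusted p = 0.764); its WT values lay between its JMJD1C-LKO values. Of the 23 lipogenic genes tested, 7 were higher and 5 lower, with a median log2 fold change of 0.001. Among major urinary proteins 3 of 6 summit-free genes were higher and 1 lower, and of all 20 tested 6 were higher and 2 lower. Mup21, with 94.4% unique words, had 34.5 and 39.5 CPM in the WT and 102 and 74.6 CPM in the JMJD1C-LKO libraries (log2 fold change 1.30 ± 0.15 SE, adjusted p = 0.000432), and Mup19, with 9.5%, had 62.4 and 69.9 CPM in the WT and 42.8 and 28.8 CPM in the JMJD1C-LKO libraries. Sdsl, a serine dehydratase relative, was higher (log2 fold change 0.34 ± 0.09 SE, adjusted p = 0.0189) and Eif3j2, a copy of a translation initiation subunit, was lower (log2 fold change -0.34 ± 0.08 SE, adjusted p = 0.0133). Hdac6, a cytoplasmic deacetylase, and Hlf, a clock-driven transcription factor, did not pass the test, with log2 fold changes of -0.13, adjusted p = 0.265 and -0.31, adjusted p = 0.0504.

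**Figure D5:**
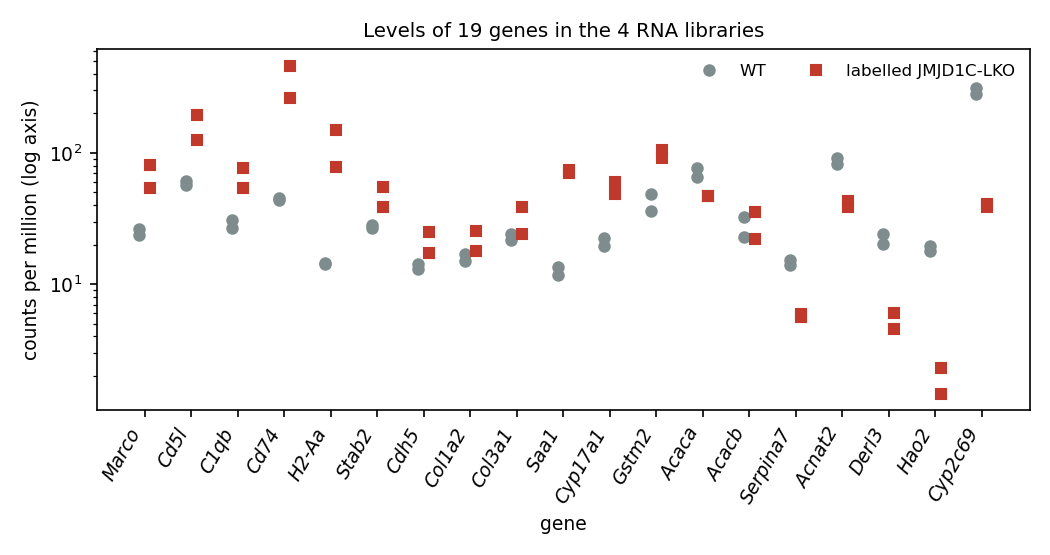
RNA levels of 19 summit-free genes in CPM on a log axis, with 2 WT libraries (grey circles) and 2 libraries labelled JMJD1C-LKO (red squares) per gene. Genes from Marco to H2-Aa at the left lie higher in both JMJD1C-LKO libraries, Acacb overlaps, and genes from Serpina7 to Cyp2c69 at the right lie lower in both.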

How the data were processed

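Liver ATAC-seq (6 samples), H3K9me2 ChIP-seq (4, each with input) and RNA-seq (4 libraries) were grouped by sample title. For the peak assays the authors aligned 50-base reads to mm10 (the ChIP-seq methods name Bowtie2 and unique alignments, and the submitters' processing notes list BWA), called peaks per sample with MACS2 2.1.1 (limits: q-value 0.05, and fold enrichment 2.5 over input for ChIP-seq or 2 for ATAC-seq). Each deposited summit carries the −log10 of its q-value as a score. The deposited RNA-seq table holds estimated counts for each RefSeq transcript, to which the authors applied no scaling. The notes list HISAT2 and Partek, with no counting method or strand setting given in the sources used here. A second deposited table holds the authors' own comparison (p-values and fold changes) and was not used.

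Members and lists were chosen with earlier results of these data known, and the promoters printed and the closing families after their values were seen. Transcripts were matched to RefSeq GRCm38.p6 by accession (24823 of 24994), and 35 of 15572 genes were not matched. Of matched transcripts, 86.9% had the same chromosome and ends within 2 bp. CPM are counts summed per gene over the library total. For testing, sums were rounded, filtered with filterByExpr and fitted in edgeR 4.0.16 (quasi-likelihood F test, TMM factors 0.961 to 1.018, genotype only, Benjamini-Hochberg over 14151 genes, threshold 0.05), after a check on simulated data. The common dispersion was 0.0083. DESeq2 1.42.0 was an alternative. Same-numbered WT and JMJD1C-LKO libraries did not deviate together (correlation 0), so no block was used. With 2 libraries per group both numbers give the same correlation by construction, so this is a single check. Shares of genes with ATAC-seq summits were compared over the 6 livers by an exact sign-flip permutation test. Unique words were counted on both strands of the genome with numba 0.67.0, and promoters came from RefSeq.

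Genes named are the 10 highest in WT, the 8 with the smallest p in each direction whose groups did not overlap, the lipogenic and gluconeogenic members, up to 6 with ATAC-seq summits in all 4 WT livers, the 2 genes nearest each limit, Jmjd1c, and up to 3 per further list by p. Others named were chosen after their values were seen. The 33 gene lists and the alternatives (limits, windows, scores, scaling, samples left out) are described with their effect.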

Additional observations from a re-analysis of the deposited data

How the results depend on the processing

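The number of genes without a promoter summit moved with the rule: 594 at 5 CPM, 199 at 20 CPM, 569 with a 500 bp window, 934 with the refed ChIP-seq livers alone, and 332 to 774 when a ChIP-seq liver was left out. For JMJD1C-LKO against WT (105 higher, 57 lower, median log2 fold change 0.092), choosing genes by the mean of all 4 libraries gave 164 higher and a median of 0.217, 20 CPM gave 56 higher and 0.005, and 500 bp gave 107 lower and 0.018. The mean of all 4 libraries adds only genes that pass through higher JMJD1C-LKO levels, so its larger values follow in part from the choice. The median was 0.056 with total-count scaling, 0.128 for genes of at least 90% unique words, 0.138 without genes that have a summit at a predicted start and 0.057 outside the marker lists, the last 3 chosen after seeing the data. Leaving out an RNA library gave 49 to 129 higher, 25 to 69 lower and medians of 0.052 to 0.101. DESeq2 gave 99 higher and 54 lower. A replicate block, with numbers that do not pair the libraries, gave 114 higher, 61 lower and a median of 0.089, and is no paired test. None of these changed the sign of the median.

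The difference in ATAC-seq share (-12.41 points) kept its sign and p = 0.0312 (exact permutation) in the other settings, from -13.75 to -3.62 points, the last with the 825 strongest summits per liver. Without the WT fasted, WT refed or JMJD1C-LKO livers it was -10.23, -10.56 or -16.45 points (exact p = 0.125), and without single livers -14.58 to -10.3 (exact p = 0.0625), where fewer livers allow no smaller p. Limits are the unknown depth of the summit lists, the 2 libraries per group, the reads discarded at repeated sequence, and the annotation of starts.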

Other observations

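Of 11 expressed collagen genes, 8 belonged to the set of expressed genes with no H3K9me2 promoter summit, and 5 of these were higher in JMJD1C-LKO and none lower (edgeR, adjusted p under 0.05), with a median log2 fold change of 0.48. Over all genes tested 14.6% were higher and 13.4% lower, and changes of the collagen genes outside the set are not given here. Col4a1 and Col4a2, which share a promoter region and encode the chains of basement membrane collagen, had 35.8 and 34.6 CPM in the WT and 46.0 and 53.4 CPM in the JMJD1C-LKO libraries and 28.7 and 27.7 CPM in the WT and 40.9 and 42.5 CPM in the JMJD1C-LKO libraries. Both pairs of libraries were apart, and both genes have CpG-rich promoters, with ratios of 0.90 and 0.82. Col5a3 had 37.9 and 31.3 CPM in the WT and 45.0 and 55.2 CPM in the JMJD1C-LKO libraries (log2 fold change 0.57 ± 0.11 SE, adjusted p = 0.0057), whereas Col15a1 and Col6a1 did not pass the test. The summed stellate markers, which include Col1a2 and Col3a1 themselves, and the summed endothelial markers were also higher, and their part was not tested. The other stellate markers of the set, Dcn, Lrat and Rgs5, did not pass the test, with log2 fold changes of 0.25, -0.29 and -0.02. These families were looked at after the values were seen.

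Of 6 expressed genes of the mu class of glutathione transferases, 4 belonged to the set. These 4 lie side by side on chromosome 3, and 3 of them were higher. Gstm3 had 29.3 and 25.2 CPM in the WT and 41.1 and 67.9 CPM in the JMJD1C-LKO libraries and Gstm6 33.7 and 29.9 CPM in the WT and 45.0 and 47.4 CPM in the JMJD1C-LKO libraries, while Gstm7 had 32.6 and 29.8 CPM in the WT and 36.4 and 33.4 CPM in the JMJD1C-LKO libraries and did not pass the test (log2 fold change 0.20 ± 0.10 SE, adjusted p = 0.154). Gstm6 and Gstm7 each had an ATAC-seq summit in WT fasted liver 1, at 70 and 86 bp upstream of a start. Of 10 expressed acyl-CoA thioesterase and N-acyltransferase genes 3 belonged to the set and all 3 were lower, among them Acot3, a peroxisomal thioesterase, with 83.1 and 95.2 CPM in the WT and 31.8 and 54.0 CPM in the JMJD1C-LKO libraries (log2 fold change -1.02 ± 0.18 SE, adjusted p = 0.00316). Over all genes tested 14.6% were higher and 13.4% lower. Changes of the mu class and thioesterase or acyltransferase genes outside the set are not given here. All 7 expressed genes annotated as copies of ribosomal protein genes (named -ps or rt) were in the set, against none of the 78 ribosomal protein genes themselves, and 4 of the 7 were lower. For comparison, 54 of 81 ribosomal protein genes tested were lower, and reads shared between a gene and its copy cannot be told apart here.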
